A study of Mus musculus with 3 samples.

Results

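Interferon-stimulated genes are the genes that cells switch on when an interferon binds its receptor, and 32 of them were followed here in mouse muscle. Of the 32 listed symbols, 26 are targets of the type I interferons and 6 are GTPases classically induced by interferon gamma. A gene was included when a non-control probe of the arrays carried its symbol as the gene name in the scanner files. By this rule 27 genes with 42 probes were found among 27957 gene names and 41169 probes, 23 of the 26 type I targets and 4 of the 6 GTPases. A further 4 listed genes stood on the arrays under older names and were identified by their RefSeq accession: Irf9, Dhx58, Gbp3 and Irgm1. Their values are given where they are named and enter no count unless that is said, and the expression of Xaf1 was not analysed here.

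The study asked how Chlorella, a unicellular green alga taken as a food supplement, acts on muscle gene expression of mice under the stress of swimming. All mice were males of 6 weeks, with no genetic change given in the labels, and total RNA of muscle was taken after 14 days. The nonswimming group received normal food and did not swim. The swimming group received the same food and swam. The Chlorella group swam and received food with 0.5% Chlorella powder. The comparison of the Chlorella group with the nonswimming group therefore differs in both food and swimming. RNA of 10 mice was pooled per group and hybridised to 1 single-colour array, so there were 3 arrays in all and no replicate. The sources used here name neither the strain nor the muscle taken.

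Type I interferons, a family of alpha interferons and interferon beta, signal through the receptor chains Ifnar1 and Ifnar2 and the kinases Jak1 and Tyk2. These phosphorylate Stat2, which enters the nucleus in a complex with Irf9 that binds the interferon-stimulated response element (ISRE) in the promoters of antiviral genes. Interferon gamma binds Ifngr1 and Ifngr2 and acts through the gamma-activated site (GAS). Its typical products include guanylate-binding proteins and immunity-related GTPases, which attack the vacuoles of intracellular pathogens, and Irf1, which carries the signal on to further genes. In muscle, the fibres, endothelium and resident macrophages can all respond to interferons, and type I target expression is well known from the muscle of patients with dermatomyositis.

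Promoter sequences are shown for members whose first bases carry the ISRE core, because they are the letters through which these genes are known to answer interferon. RefSeq promoter windows of assembly GRCm38.p6, 300 bases around each gene start, were matched for 25 of the 32 listed genes, 29 windows in all. The ISRE core was searched on both strands as GAAA, any 2 bases and GAAA again, and the GAS core as TTCNNNGAA, which reads the same on both strands. The stretches below run from -150 to -1 before the start on the gene's strand, with each match in capitals. Isg15 encodes a ubiquitin-like protein, Rsad2 encodes viperin, Oas1a a sensor of double-stranded RNA, Bst2 tetherin, and Igtp an interferon gamma GTPase. They lie at chr4:156200819-156200968 (minus strand), chr12:26456453-26456602 (minus), chr5:120907526-120907675 (minus), chr8:71537473-71537622 (minus) and chr11:58199406-58199555 (plus), in that order. For Ifih1, an RNA sensor, the match lies after the start, and bases 22 to 49 of its transcript side are shown (chr2:62646206-62646233, minus).
Isg15: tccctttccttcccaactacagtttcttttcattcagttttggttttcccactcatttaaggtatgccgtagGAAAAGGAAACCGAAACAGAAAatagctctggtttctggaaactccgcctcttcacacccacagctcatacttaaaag
Rsad2: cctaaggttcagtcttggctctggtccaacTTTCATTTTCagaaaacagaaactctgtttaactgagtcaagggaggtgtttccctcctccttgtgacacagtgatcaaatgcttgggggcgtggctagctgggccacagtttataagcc
Oas1a: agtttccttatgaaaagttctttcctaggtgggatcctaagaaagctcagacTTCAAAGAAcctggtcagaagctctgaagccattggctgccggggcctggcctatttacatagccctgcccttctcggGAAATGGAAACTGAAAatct
Bst2: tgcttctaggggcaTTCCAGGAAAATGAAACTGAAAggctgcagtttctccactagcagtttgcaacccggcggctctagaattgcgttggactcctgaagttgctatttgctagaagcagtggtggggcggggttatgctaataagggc
Igtp: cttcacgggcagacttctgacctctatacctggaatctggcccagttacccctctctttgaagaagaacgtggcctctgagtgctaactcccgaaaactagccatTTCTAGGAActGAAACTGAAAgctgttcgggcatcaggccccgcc
Ifih1: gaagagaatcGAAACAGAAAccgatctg

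The capitals differ in arrangement between these genes. Isg15 carried 3 overlapping ISRE cores between -78 and -57, and Oas1a carried 2 overlapping ones between -20 and -5 with a separate GAS core at -98 to -90. In Bst2 the GAS core at -136 to -128 ran into 2 overlapping ISRE cores that ended at -115. Igtp held a GAS core at -45 to -37 and an ISRE core at -34 to -25. In Rsad2 the match lies on the other strand, at -120 to -111, so that it reads as the reverse complement.

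The ISRE core was present in 14 of the 25 genes with a window, and in 48.3% of their 29 windows against 3.44% of all 32851 windows of the same length. The GAS core was present in 7 genes, in 24.1% of their windows against 8.30% of all. Both were present in 4 genes: Bst2, Eif2ak2, Oas1a and Igtp. In Bst2 the cores overlap in sequence, as shown. Of the 5 GTPases with a window, 4 held the ISRE core, Gbp2, Gbp3, Igtp and Irgm1, and 1, Igtp, held the GAS core. A match is a run of letters and does not show binding in these muscles. The windows of Irf7, Irf9, Trim25, Oasl1, Oasl2, Ifi44, Xaf1 and Ifi47 held neither core.

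**Figure D1:**
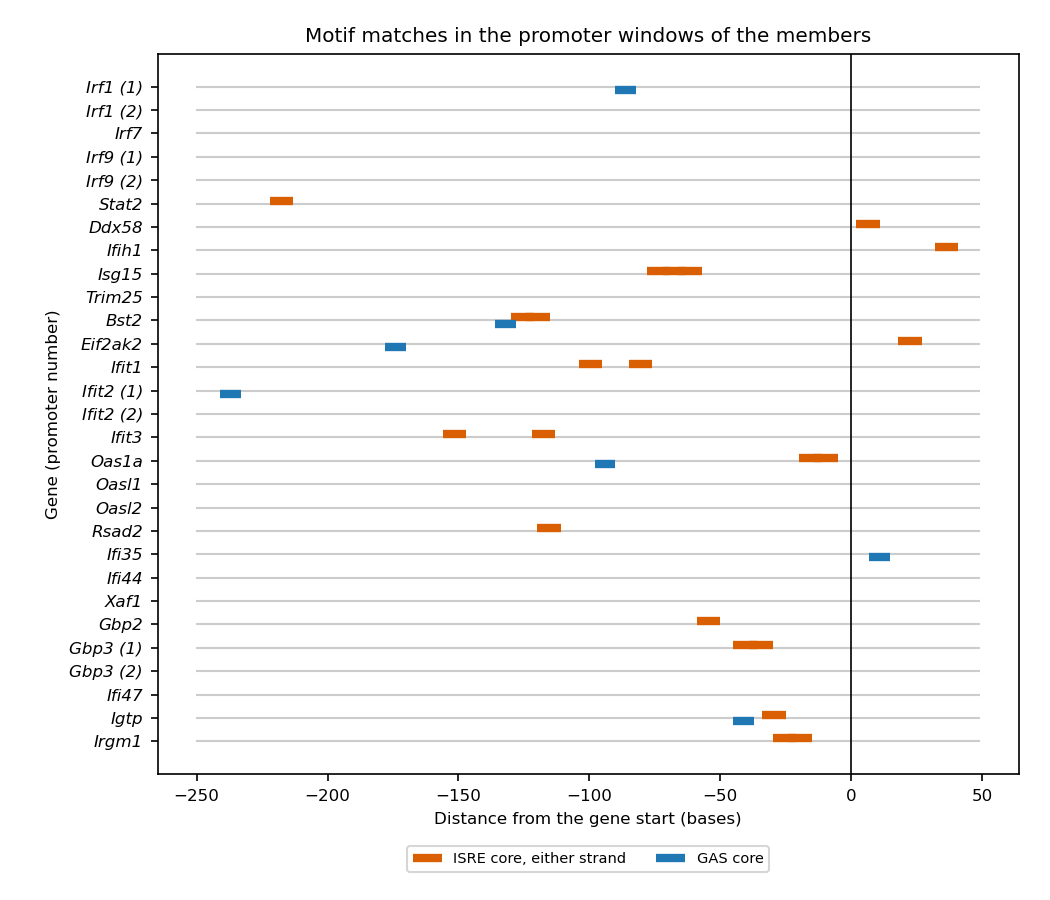
Positions of the ISRE core (orange) and the GAS core (blue) in the promoter windows of the listed genes, with distance from the gene start in bases on the horizontal axis and a row for each window. Most ISRE matches lie before the start, and those of Ifih1, Ddx58 and Eif2ak2 lie just after it.

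On the arrays, each gene was represented by its brightest probe. Its processed signal, in intensity units after background subtraction, is given below in the order nonswimming, swimming, Chlorella. A ratio is the log2 of 2 such signals after each was divided by the 75th percentile of its array, which was 285.9, 295.0 and 237.8. A value of 1 is therefore 2-fold, and the figure after ± is the error that the scanning software assigned to both spots, a technical error that carries no variation between animals. Without replicate arrays no test between groups was made. Genes are instead counted when both arrays were well above background and differed at least 2-fold, or differed by more than the 95% limit of the spot error. From 23448 to 24857 probes per array were well above background, none was saturated, and the lowest such signals lay between 5.78 and 6.45. All 10 muscle fibre markers examined were well above background on all 3 arrays. Of the 27 members, 26 were well above background on all 3 arrays, and Mx1 was the exception. The Ifit, Oas, Mx and GTPase genes belong to families with similar copies, and binding of a probe to a neighbouring copy was not tested.

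Among the transcription factors, Irf1, a factor induced above all by interferon gamma, gave signals of 1561, 1521 and 756. It was about equal on the arrays of both groups on normal food and lowest on the Chlorella array. Its ratio was -0.08 ± 0.20 for swimming against nonswimming, -0.70 ± 0.20 for Chlorella against normal food in swimming mice and -0.78 ± 0.20 for Chlorella against nonswimming. A second Irf1 probe gave 79.2, 72.2 and 34.4, the same order. Irf7, which amplifies the type I response, had ratios of 0.29 ± 0.21, -0.56 ± 0.21 and -0.27 ± 0.21 in the same 3 comparisons. Stat2 and Irf9, partners in the type I complex, had ratios between -0.33 and -0.01 in all 3, none beyond the limit of the spot error.

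The RNA sensors Ifih1 and Ddx58 differed little between the arrays. Ifih1, which encodes the long double-stranded RNA sensor MDA5, gave signals of 219.57, 240.1 and 177 and ratios of 0.08 ± 0.20, -0.13 ± 0.20 and -0.04 ± 0.20. Ddx58, which encodes RIG-I, had ratios of 0.21, -0.10 and 0.11. Its measured probes disagreed in sign for swimming and for Chlorella against nonswimming. Dhx58, a regulator of both sensors identified by accession, was higher on the swimming array than on both others. Its ratios were 0.43 ± 0.21 and -0.46 ± 0.21, both beyond the limit of the spot error, and then -0.04 ± 0.22.

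In the ISG15 pathway, Isg15 itself gave 80.4, 159.55 and 85.5, with the swimming array well above both others. After scaling, the ratio was 0.94 ± 0.21 for swimming, -0.59 ± 0.21 for Chlorella in swimming mice and 0.35 ± 0.21 for Chlorella against nonswimming. The array's own annotation places this probe on chromosome 17, whereas RefSeq places Isg15 on chromosome 4, so whether the probe reads this gene or a copy is uncertain. Usp18, which removes ISG15 from proteins and dampens the type I receptor, was also highest on the swimming array, with ratios of 0.31 ± 0.20 and -0.47 ± 0.20. Its ratio for swimming lay within the limit of the spot error. Trim25, a ligase that activates RIG-I, gave 584, 708 and 505, and its ratios of 0.23, -0.18 and 0.06 lay within the limit of the spot error. In the authors' value table those for swimming and for Chlorella against nonswimming were -0.25 and -0.45.

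Among the antiviral effectors measured on all arrays, Rsad2 stood farthest apart. It encodes viperin, an enzyme that makes a chain-terminating nucleotide against viral polymerases. Its signals were 96.7, 254.6 and 57.5, with the swimming array above both others. The ratio was 1.35 ± 0.21 for swimming, a 2.55-fold higher level, and -1.83 ± 0.21 for Chlorella in swimming mice, a 3.57-fold lower one. Its other probes gave 10.7, 32.7 and 13.5 and 11.1, 36.1 and 10.7, again highest on the swimming array. The probes disagreed on whether the Chlorella array lay below the nonswimming array, where the brightest probe gave -0.48 ± 0.21 and the mean over probes 0.11.

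Oas1a, which makes the second messenger that activates RNase L, was low on the Chlorella array. It gave 78.5, 89.2 and 34.5, with ratios of 0.14 ± 0.21, -1.06 ± 0.21 and -0.92 ± 0.21. With normexp background correction the middle ratio was -0.41. Oas2, Oasl1 and Oasl2, of the same family, were also lowest on the Chlorella array. Their ratios ran from -0.57 to -0.41 for Chlorella against normal food in swimming mice and from -0.75 to -0.47 against nonswimming. Under normexp those of Oas2 turned to 0.13 and 0.10. For swimming alone, the ratios of these 3 genes ran from -0.34 to 0.09, within the limit of the spot error.

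The Ifit genes encode proteins that bind viral RNA. Ifit1 gave ratios of 0.43 ± 0.21, -0.36 ± 0.21 and 0.07 ± 0.21, and so was highest on the swimming array. Ifit3 gave 217, 226.9 and 120.2, equal on both normal food arrays and lower on the Chlorella array, with ratios of 0.02, -0.60 and -0.59, each ± 0.20. Ifit2 had ratios between -0.15 and -0.07.

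Mx2, an antiviral dynamin-like GTPase, gave 55.5, 52.1 and 26.7, with ratios of -0.13 ± 0.21, -0.65 ± 0.23 and -0.79 ± 0.23. For its paralogue Mx1 the probes gave different orders. The brightest Mx1 probe gave 30.1, 5.63 and 1.27 and was well above background on the nonswimming array alone, at least 5.37-fold above the swimming array and at least 3.99-fold above the Chlorella array. The other probe gave 1.40, 2.60 and 7.41 and was well above background on the Chlorella array alone.

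Bst2, whose product tethers budding viruses to the cell surface, gave 1016, 1080.5 and 758, with ratios of 0.04, -0.20 and -0.16, each ± 0.20. Eif2ak2, the double-stranded RNA kinase PKR, and Ifi35 were the only members whose scaled signal was highest on the Chlorella array. Ifi35 gave 800.07, 906 and 752 and Eif2ak2 163, 174.95 and 157, and the ratios of both lay between 0.04 and 0.21 in all 3 comparisons. Scaling decided some of these signs: the swimming ratio of Eif2ak2 was -0.09 under median centring, and the ratio of Ifi35 between the swimming arrays was -0.04 at its lowest. Parp14, an ADP-ribosyltransferase, had ratios between -0.09 and 0.01, whereas the authors' value table gave 1.02 and 1.09 for the Chlorella comparisons.

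Ifi44, a widely used index of type I interferon exposure, gave 12.6, 28.7 and 20.7. It was lowest on the nonswimming array, with ratios of 1.14 ± 0.31 for swimming and 0.98 ± 0.32 for Chlorella against nonswimming, and -0.16 ± 0.25 between the swimming arrays. It was the only member higher on the Chlorella than on the nonswimming array beyond the limit of the spot error. Under normexp its swimming ratio was 0.22.

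The interferon gamma GTPases were all lowest on the Chlorella array, except that under median centring the ratio of Igtp between the swimming arrays was 0.01. Gbp2, a guanylate-binding protein, gave 364.5, 355.1 and 211, nearly equal on the normal food arrays, and its ratios were -0.08, -0.44 and -0.52, each ± 0.20. Igtp, also known as Irgm3, gave 1763, 1510.0 and 1114, with ratios of -0.27, -0.13 and -0.40. Iigp1, which coats the vacuole of Toxoplasma, gave 1022, 836 and 479, with ratios of -0.34, -0.49 and -0.83.

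Ifi47 was the GTPase with another order. It gave 72.9, 95.4 and 48.2, highest on the swimming array, with ratios of 0.34 ± 0.21, -0.67 ± 0.21 and -0.33 ± 0.21. Both ratios against nonswimming lay within the limit of the spot error. The GTPases known by accession, Gbp3 at 448.8, 430.4 and 299.67 and Irgm1 at 699, 609.97 and 462 were also highest on the nonswimming array and lowest on the Chlorella array. Their ratios lay between -0.33 and -0.09, and that of Irgm1 between the swimming arrays was 0.04 under median centring.

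**Figure D2:**
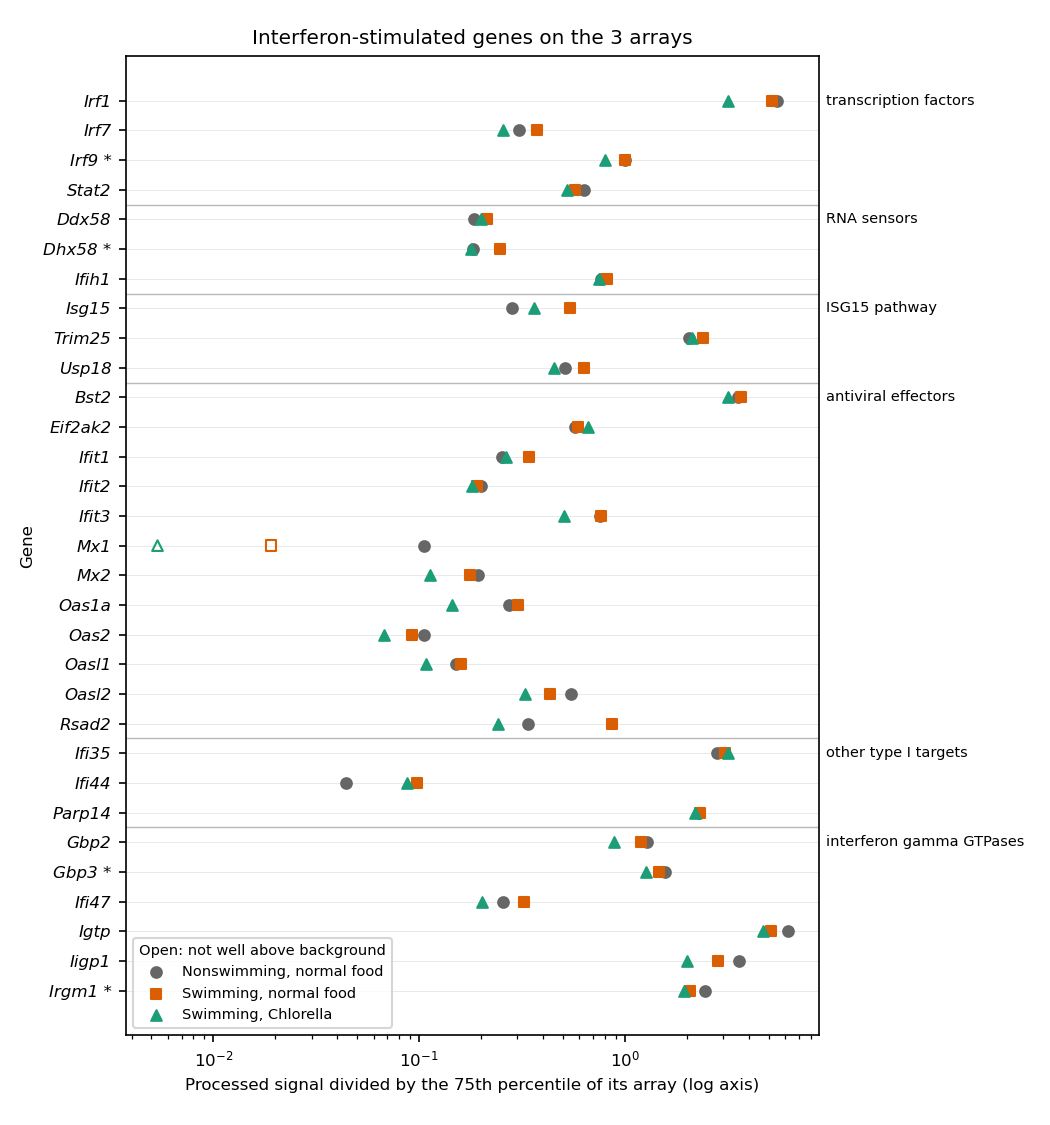
Processed signal of each gene divided by the 75th percentile of its array, on a log axis, for the nonswimming (grey circles), swimming (orange squares) and Chlorella (green triangles) arrays. Genes are ordered by role, * marks those identified by accession, and open symbols were not well above background. The green triangle is the leftmost symbol for all 6 GTPases (under median centring the ratio to the swimming array is 0.01 for Igtp and 0.04 for Irgm1), and the orange square of Rsad2, Isg15 and Ifi44 lies far to the right of the grey circle.

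For swimming against nonswimming on normal food, most members stood at similar levels, and a few antiviral genes stood higher. Their median ratio was 0.07 over 26 measured members, against -0.04 over all 15764 genes measured, and it was -0.08 under median centring, which moves the median of all genes to -0.19. Below 0 were 9 of 26, where 55.1% of all genes were, and 17 under median centring, where 73% of all genes were. At least 2-fold higher were 2 of 26, Rsad2 and Ifi44, where 5.14% of all genes were, and 0 were 2-fold lower, where 1.08% were. Ifi44 was just short of 2-fold under quantile normalization and median centring, at 0.99 in both. Beyond the limit of the spot error, 4 members were higher (Isg15, Ifit1, Rsad2 and Ifi44), where 12.4% of all genes were, and 0 were lower, where 8.99% were. The number of higher members is thus near the share over all genes. In these same arrays, markers of some other cells stood much farther apart. All 9 neutrophil markers were higher on the swimming array with a median ratio of 4.03, and their summed scaled signal was 16.4, 276 and 3.50 on the 3 arrays. The 5 measured erythrocyte markers had a median of 3.73. The 5 measured T and NK cell markers had a median of 2.64, with 4 above 0 and 1 below. The 6 measured B cell markers had a median of 3.68, and their whole list had a sum of 1.996, 8.64 and 1.72, while 4 measured keratinocyte markers were lower with a median of -4.48, and all 5 keratinocyte markers had a sum of 7.65, 1.85 and 2.13. What these cells contribute to the signals of the members was not tested. In RNA of whole muscle, fewer cells of a type and less RNA per cell cannot be told apart.

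For Chlorella against normal food in swimming mice, the members leaned to lower signals on the Chlorella array. Their median ratio was -0.42, against 0.08 over all 15611 genes, and 24 of 26 had a ratio below 0, where 40% of all genes did. Under median centring 18 of 26 were, where 26.5% of all genes were, and under cyclic loess 25, where 52.3% were. The median ran from -0.48 to -0.16 over the other scalings, the latter under normexp. Rsad2 and Oas1a were at least 2-fold lower, 2 of 26 where 4.86% of genes were, and 0 were 2-fold higher, where 1.4% were. Oas1a was just short of 2-fold under quantile normalization, at -0.97, and median centring, at -0.93. Lower beyond the limit of the spot error were 13 of 26, where 12.3% of all genes were. They were the factors Irf1 and Irf7, Isg15 and Usp18, the effectors Ifit3, Oas1a, Oasl1, Oasl2, Mx2 and Rsad2, and the GTPases Gbp2, Iigp1 and Ifi47. None of the members was higher beyond that limit, where 11.8% of genes were. With normexp background correction the 13 became 5, where 7.16% of all genes were.

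The Chlorella array also held less signal of macrophage markers than the swimming array. All 9 macrophage markers had a ratio below 0, where 40% of all genes did. Their median was -0.97, and all 9 were well above background on each array. Lower beyond the limit of the spot error were 8 of the 9, where 12.3% of all genes were. Cd163, at -0.02 ± 0.20, was not resolved from 0. The summed scaled signal of the macrophage markers was 84.4, 121 and 46.7. Lyz2 had by far the largest signal among them, 21067, 32079 and 9495 before scaling, so the sum follows this gene. For swimming against nonswimming the median ratio of the 9 markers was 0.03, with 6 above 0 and 3 below. All 8 measured neutrophil markers were lower, with a median of -6.76, and Elane was not well above background on the Chlorella array. The 10 muscle fibre markers were all higher, with a median of 0.30 (0.03 under quantile normalization) and sums of 5345, 4464 and 5663, and 5 of 6 endothelial markers were higher, with a median of 0.23 and sums of 19.7, 18.15 and 21.9. Adipocyte markers had a median of -1.19, with sums of 154, 327 and 159. Markers of plasmacytoid dendritic cells, the main producers of type I interferon in blood, had a median of -0.99 over 5 measured genes, but differed in direction. Above 0 were 2 of the 5, Tcf4 at 0.62 ± 0.20 and Pacsin1 at 0.36 ± 0.21. The sums of the list were 7.89, 8.17 and 10.3. They follow Tcf4, the brightest of the list, at 2082, 1869 and 2321 before scaling. Ly6d was not well above background on the Chlorella array. The part of these cells in the ratios of the members was not tested.

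For Chlorella against nonswimming, where the swimming array is not used, the members were again mostly lower. The median ratio was -0.27, against 0.04 over all 15440 genes, and 19 of 26 were below 0, where 45.3% of all genes were. None was 2-fold apart, where 2.1% of genes were higher and 1.48% lower. Lower beyond the limit of the spot error were 10 of 26, where 10.3% of genes were: Irf1, Ifit3, Oas1a, Oas2, Oasl1, Oasl2, Mx2, Rsad2, Gbp2 and Iigp1. Higher was 1, Ifi44, where 12.2% of genes were. With normexp the 10 became 5, where 5.72% of genes were. All 9 macrophage markers were lower here too, with a median of -0.81. The 8 measured neutrophil markers had a median of -2.69 and the 4 measured keratinocyte markers -4.06, and their part in the result was not tested. This comparison shares an array with each of the others, so the 3 are not independent.

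**Figure D3:**
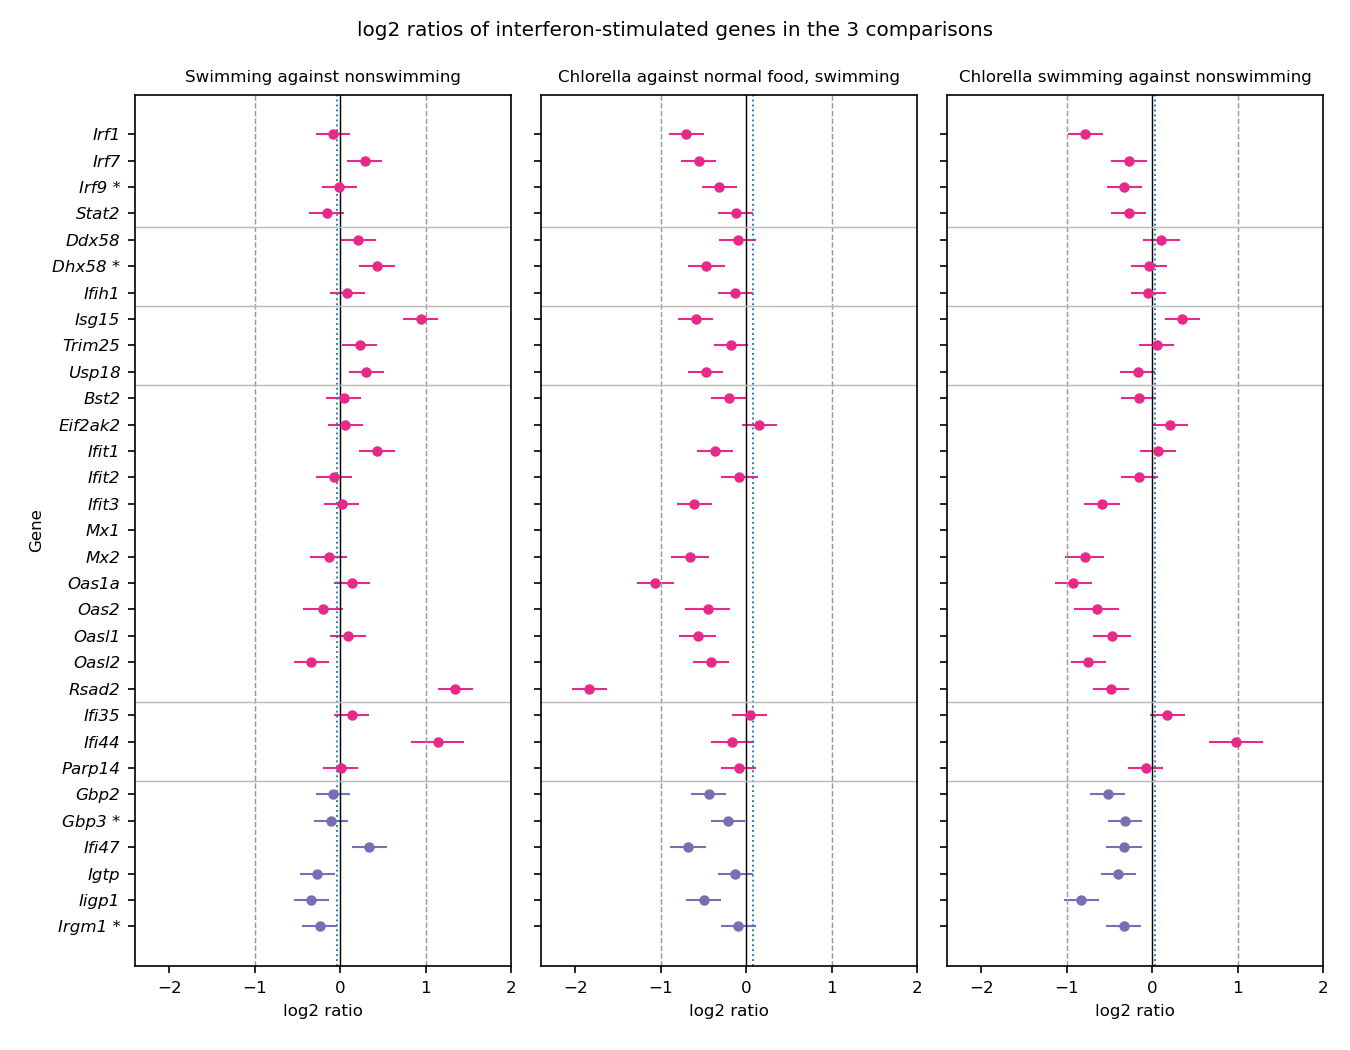
Ratios of the listed genes in the 3 comparisons on a log2 axis, type I targets in pink and GTPases in violet, with bars of 1 spot error. Dashed lines mark 2-fold, the blue dotted line is the median of all genes, and Mx1 has no point. In the middle panel 24 of the 26 members found by name lie left of 0 (18 under median centring), and in the left panel 17 lie right of it, which becomes 9 under median centring.

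The order of the 3 arrays summarises the members without a threshold. Of the 26 measured on all 3, 19 were lowest on the Chlorella array, against 27.8% of 15369 genes, and 0 were lowest on the swimming array, against 40.5%. The other 7 were lowest on the nonswimming array, against 31.6%: Ddx58, Isg15, Trim25, Ifit1, Eif2ak2, Ifi35 and Ifi44. The swimming array was highest for 15, against 25.2%, the nonswimming array for 9, against 32.4%, and the Chlorella array for 2, against 42.4%. Over the alternative settings, the Chlorella array was lowest for 14 of 26 members under median centring, where 19.7% of genes were, and for 23 of 30 when names came from accessions. Under median centring the swimming array was the lowest for Stat2, Ifih1, Ifit2, Parp14, Igtp, Eif2ak2 and Ifi35, so the 0 depends on the scaling.

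The members split into recurrent orders. Highest on the swimming array and lowest on the Chlorella array were 10 members, where 12.9% of genes were: Irf7, Ifih1, Usp18, Ifit3, Oas1a, Oasl1, Rsad2, Bst2, Parp14 and Ifi47. Highest on the nonswimming array and lowest on the Chlorella array were 9, where 14.9% were: Irf1, Stat2, Ifit2, Oas2, Oasl2, Mx2, Gbp2, Igtp and Iigp1. For several members, such as Ifit2, Parp14 and Bst2, the arrays lay within the spot error of each other, so their order is not resolved. The orders of Stat2, Ifih1, Ifit2, Parp14 and Igtp changed under median centring, where the swimming array was their lowest.

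The medians of the type I targets and of the interferon gamma GTPases lay farther apart against the nonswimming array than between the swimming arrays, a difference that was not tested. For swimming, the median ratio was 0.09 over 22 type I targets (-0.06 under median centring) and -0.18 over 4 GTPases, a difference of 0.26. The swimming array was the highest for 14 of the 22 type I targets and for 1 of the 4 GTPases. The nonswimming array was the highest for 6 of the 22 and for 3 of the 4. With all 6 GTPases known by accession the medians were 0.09 and -0.17.

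For Chlorella in swimming mice the classes lay close together, at -0.39 for the type I targets and -0.47 for the GTPases, a difference of 0.08 that turned to -0.06 with 6 GTPases. The type I targets spread from -1.83 to 0.15, around the GTPases' range of -0.67 to -0.13. For Chlorella against nonswimming the medians were -0.16 and -0.46, a difference of 0.30, or 0.20 with 6 GTPases. All 4 GTPases lay between -0.83 and -0.33, and 14 of 22 type I targets lay above that range while 1, Oas1a, lay below it. These differences between class medians are of the size of the error of a single ratio, the GTPases are few, and with 1 array per group they were not tested. Over all settings run, including 1 with Irf1 counted among the interferon gamma genes, the differences ran from 0.18 to 0.28, from -0.06 to 0.20 and from 0.20 to 0.36 in the 3 comparisons.

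Genes upstream of the members were examined from lists of the pathway. Transcripts of the interferons themselves were mostly not well above background. Of 18 interferon and inducing cytokine genes on the arrays, 11 were not well above background on the nonswimming and swimming arrays and 12 on the Chlorella array. These 18 include the cytokine genes Il12a, Il12b and Il18, of which Il12b was not well above background on any array. The interferon genes Ifna9, Ifna13, Ifnab and Ifnz were well above background on every array. Of all 41169 probes, 23841, 24857 and 23448 were well above background on the nonswimming, swimming and Chlorella arrays. Ifnb1, interferon beta, gave 1.76, 1.56 and 1.66, not well above background on any. Ifng, interferon gamma, gave 26.4, 6.53 and 5.12. It was well above background on the nonswimming and swimming arrays, with a ratio of -2.06 ± 0.36, and on the Chlorella array it was not, at least 3.51-fold below nonswimming. Its swimming signal lay close to the lowest signal well above background on that array, 5.78.

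The receptor chains of type I and gamma interferons were detected on all arrays. Over 5 measured chains, these and Il10rb, the medians were 0.05 (-0.11 under median centring), -0.13 and 0.07 (-0.02 in the authors' value table). Ifnar1 gave ratios of -0.23, -0.13 and -0.36 and Ifnar2 0.68, -0.32 and 0.36, each ± 0.20. The other measured Ifnar2 probe gave 0.35, -0.86 and -0.51, so the probes disagreed in sign for Chlorella against nonswimming. Ifngr1 and Ifngr2 lay between -0.04 and 0.20. Il10rb had -0.49 ± 0.20 for Chlorella in swimming mice, and Ifnlr1, a chain of the lambda interferon receptor, was well above background on the swimming array alone, at 24.3.

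Over 8 kinases and other factors of the pathway the medians were -0.03, 0.09 and -0.02, near 0 with signs that varied between scalings in the first 2 comparisons, and 1 gene was 2-fold apart, Irf5, at -1.17 ± 0.20 for swimming.

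Genes of nucleic acid sensing upstream of the interferons, such as the Toll-like receptors of nucleic acids and their adaptors, had medians of -0.14, -0.14 and -0.32 over 9 measured genes, and 0 were past 2-fold in any comparison.

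Among the inhibitors, some stood far apart. Socs1, which blocks the receptor kinases and is induced by interferon gamma, gave 884, 296 and 269, lower on both swimming arrays, with ratios against nonswimming of -1.62 ± 0.20 and -1.45 ± 0.20. Socs3, better known for limiting interleukin-6 signals, had -1.69 ± 0.20 and -2.10 ± 0.20 against nonswimming. Ptpn6, a phosphatase of blood cells, was highest on the swimming array, with ratios of 1.27 ± 0.20, -2.48 ± 0.21 and -1.21 ± 0.21 at its brightest probe. Its other measured probe disagreed, at 0.23, 0.12 and 0.36, and the part of neutrophils was not tested. The other 4 of 7 inhibitors were within 2-fold in all comparisons.

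Targets of the same interferons outside the 32 listed genes were counted from further lists. Over 23 measured type I targets not among them, the median ratios were 0.06 (-0.07 under quantile normalization and -0.09 under median centring), -0.32 and -0.24. For Chlorella in swimming mice 22 of 23 were below 0, where 40% of all genes were. Past 2-fold and higher for swimming were 3, where 5.14% of all genes were: Ifi27 at 1.06, Ifi27l2a at 1.66, and Isg20, an exonuclease, at 1.43. At least 2-fold lower on the Chlorella than on the swimming array were 3, where 4.86% were: Ifi27l2a at -1.31, Isg20 at -1.72, and Cmpk2, a nucleotide kinase, at -1.05.

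Other GTPases of the gamma class were mostly lower against the nonswimming array. Over 9 measured genes the median ratios were -0.32, -0.20 and -0.36. For Chlorella in swimming mice 6 of 9 were below 0, where 40% of all genes were, and 3 were above. In that comparison 0 were lower beyond the limit of the spot error, where 12.3% of all genes were. Below 0 were 8 of 9 for swimming, where 55.1% of all genes were. The count was again 8 of 9 for Chlorella against nonswimming, where 45.3% were. At least 2-fold lower in the latter were 2, where 1.48% of all genes were: Tgtp, which gave 836, 448.0 and 275, at -1.33 ± 0.20, and Gbp4 at -1.01 ± 0.21.

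Interferon gamma targets of another kind had another order. At least 2-fold above nonswimming on the swimming array were 4 of 8 measured chemokines and others, where 5.14% of all genes were. They were the T cell attractants Cxcl9 (1.64) and Cxcl10 (1.62), the chemokine Ccl5 (1.60) and the phagocyte oxidase subunit Cybb (1.64). Below 0 were 2 of the 8, Ido1 at -0.50 ± 0.31 and Fcgr1 at -0.01 ± 0.21, where 55.1% of all genes were. Cxcl11 was well above background on the nonswimming array alone, at least 1.93-fold above the swimming array. The swimming median was 1.10, and it was lower under normexp. Cxcl9 gave signals of 32.6, 105 and 24.1. For Chlorella in swimming mice 5 of 7 were at least 2-fold lower, where 4.86% of all genes were. They were Cxcl9, Cxcl10, Ccl5, Cybb and the receptor gene Fcgr1, and the median over the 7 was -1.22. That median was -0.51 at its nearest to 0 over the alternative settings. Against nonswimming the Chlorella median was 0.02, with signs that varied between settings. Cybb and Fcgr1 are expressed by the phagocytes whose markers differed between the same arrays, and the part of those cells was not tested.

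Antigen presentation genes, induced by both interferons, had median ratios of 0.19, -0.37 and -0.17 over 10 measured genes. Tap2, a subunit of the peptide transporter, was the 1 gene past 2-fold, at 1.23 ± 0.21 for swimming and 1.20 ± 0.21 for Chlorella against nonswimming.

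**Figure D4:**
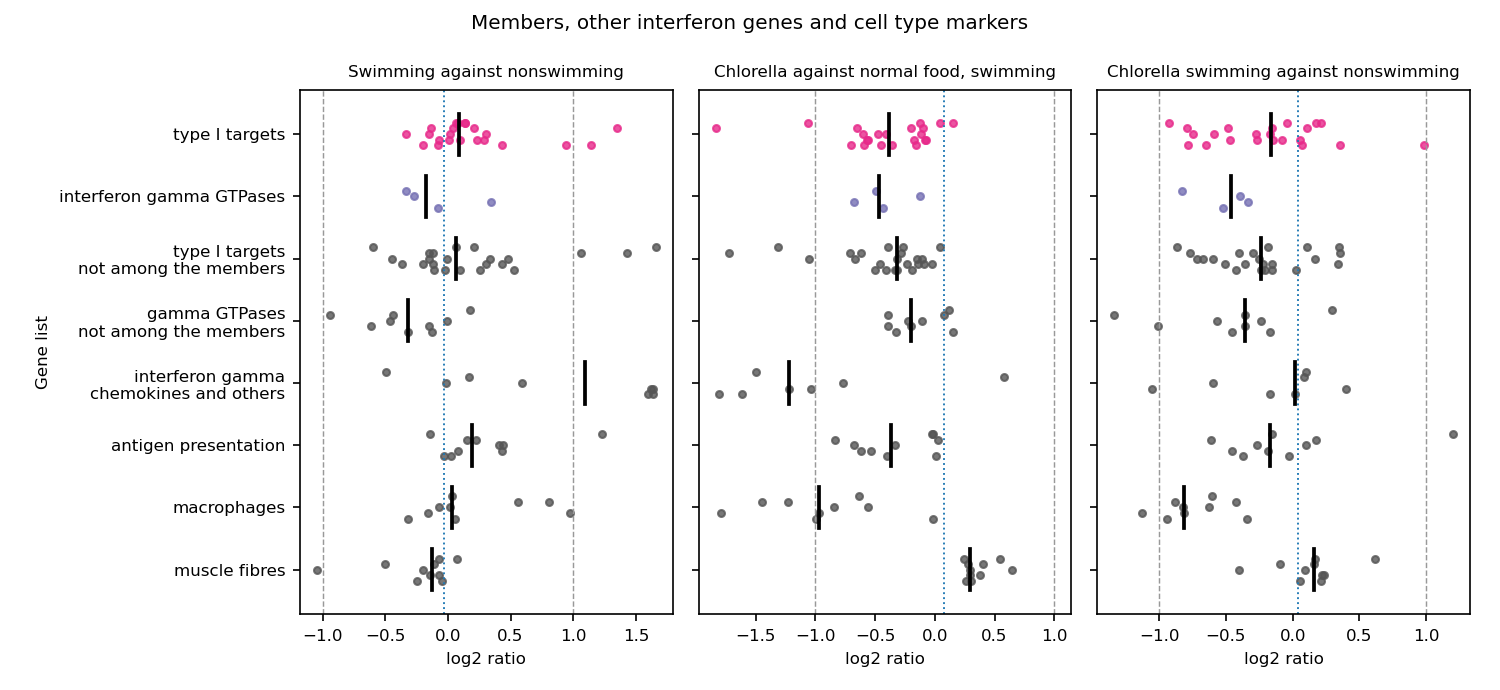
Ratios of the listed type I targets (pink) and GTPases (violet), other interferon genes, macrophage markers and muscle fibre markers in the 3 comparisons on a log2 axis, with each list's median as a black bar and the median of all genes as a blue dotted line. For swimming the GTPases not listed have a median of -0.32 and the chemokine list 1.10 (0.23 under normexp). For Chlorella in swimming mice, of the 8 lists plotted, muscle fibres has its median above 0 and the other 7 below.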

How the data were processed

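Total RNA of muscle from 3 groups of mice, pooled from 10 mice each, carried Cy3 on each of 3 single-colour arrays. The values used are the scanner's deposited intensity values, the processed signal per spot, for which the submitters' processing notes name Agilent Feature Extraction 9.5. Per the file headers this signal is background-subtracted. The deposited value table holds log2 values of the same arrays with an unstated centring (column medians 0.0076, -0.0052 and 0.010). Its differences between arrays correlated with those of the signals across 13670 matched spots at 0.71 to 0.82. After removal of a constant offset, 55.8% to 56.7% of these spots lay within 0.01, so the values differ by more than a centring. The deposited value table served as an alternative. Of 43379 non-control spots, 43185 without outlier flags were kept, and spots of a probe were averaged. Signals were log2-transformed after division by the 75th percentile of their array, and each gene was read from its brightest probe. A ratio was called when both arrays were well above background and at least 2-fold apart. All arrays were on 1 slide and 1 scan. With 1 array per group no test was possible.

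Symbols were matched to the gene names of the files, and pathway and cell lists to RefSeq accessions (names only, assembly GRCm38.p6, 22948 probes named). Full signals are given for members past 2-fold, the GTPases and the brightest member of each role, and promoters for brightest members with the ISRE core and 1 GTPase. Signals of other members, and the promoters of Isg15, Rsad2 and Oas1a, were chosen after their values were seen. Pathway genes are named if past 2-fold, or if they are Ifng, Ifnb1, Socs1 or a receptor chain. Jak1 and Tyk2 are named as background. Further genes of the interferon and cytokine list, and Ido1 and Cxcl11 of the chemokine list, are named to describe their lists. Another gene of this rule is not reported here. The members and lists were chosen with earlier results of these data known. Python 3.11.15, R 4.3.3 and limma 3.58.1 were used; the calculation was checked on simulated data. Alternatives were quantile, cyclic loess, median and other percentile scaling, normexp, other filters, the mean over probes and names by accession. Counts beyond the spot error and of the lowest array under these alternatives were added after seeing the data.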

Additional observations from a re-analysis of the deposited data

How the results depend on the processing

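The median ratios of both classes and their difference moved by less than the median spot error of a ratio, 0.26, under every alternative run, with the sign changes given beside them. The median over all members moved most under normexp, from -0.42 to -0.16 for Chlorella in swimming mice. Counts of few genes varied. At least 2-fold higher for swimming was 1 member in place of 2 under quantile normalization, median centring, normexp and a signal minimum of 50, and without the filter on dim probes 1 was lower in place of 0. For Chlorella in swimming mice, 1 was 2-fold lower in place of 2 under the same first 4 settings and 3 without the filter, and with the authors' values 1 was higher in place of 0, Parp14 at 1.02. For Chlorella against nonswimming, 1 was 2-fold lower without the filter, Mx1, and 1 was higher in the authors' table, Parp14 at 1.09. Beyond the spot error, median centring gave 3 members lower for swimming in place of 0, where 19.4% of all genes were. Normexp gave 2 higher for swimming in place of 4, where 7.40% of genes were, 5 lower in place of 13 and 5 in place of 10 for Chlorella, and 0 higher in place of 1 against nonswimming, where 6.22% were. The authors' table gave 1 higher in place of 0 and 2 in place of 1 for the Chlorella comparisons, where 10.3% and 10.1% were. Rsad2 was past 2-fold in both comparisons with the swimming array under every scaling run. No paired analysis was possible because each group has 1 array. The number of arrays limits the precision, and differences between mice of a pool were not measured.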
